A study of Mus musculus with 10 samples.

Results

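Collagens are the main structural proteins of the extracellular matrix, and the genes described here are the mouse genes that encode their chains. They were taken by symbol (Col, a number, the letter a and a number), whatever their level, which gave 42 of the 24608 gene symbols measured. Of these, 11 encode fibrillar collagens, 8 collagens of the basement membrane and 23 other collagens. Muscle satellite cells (MuSCs), the stem cells of skeletal muscle, were profiled by 3′-end RNA-seq 3 days after muscle injury by cardiotoxin (CTX), in 5 control libraries (Trpm7+/+; Pax7CreERT2/+; Rosa26YFP) and 5 Trpm7 cKO libraries (Trpm7 flox/flox; Pax7CreERT2/+; Rosa26YFP). All mice were adults of a C57BL6 background and both groups carried the tamoxifen-inducible Cre, driven by Pax7 and so by satellite cells, and the YFP reporter. Each library was made from 3000 sorted YFP-positive cells, and the question is how the loss of TRPM7, a channel for Mg2+ and other divalent ions, changes their RNA.

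Collagen chains assemble in threes into a triple helix inside the secretory pathway, where their prolines and lysines are first hydroxylated. Fibrillar collagens are then trimmed by proteases, line up into fibrils and are cross-linked, whereas type IV collagen forms the network of the basement membrane and type VI a beaded filament at its outer face. In muscle, satellite cells lie beneath the basement membrane of the myofibre and touch it directly. Most interstitial collagen of muscle is known to come from fibroblasts, although satellite cells also make collagens of their own niche.

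Control libraries held 914361 to 1097709 counts and Trpm7 cKO libraries 205986 to 581121, without overlap, so that depth moved with genotype. Mitochondrial genes took 12% to 16.5% of the counts in control and 8.82% to 10.6% in Trpm7 cKO libraries. Trpm7 itself measured 66.6 to 90.1 CPM in control and 46.4 to 101 CPM in Trpm7 cKO libraries and did not pass the test (log2 fold change -0.09 ± 0.20, adjusted p = 0.723). Counts at the 3′ end show a deletion only where it alters that end or the amount of RNA. The floxed exons are not given in the sources used here, so the genotype of these libraries was taken from the labels alone. Apart from the RNA-seq, the paper reports the deletion from Trpm7 mRNA of freshly isolated MuSCs, from PCR and from TRPM7 staining of MuSCs on myofibres. MuSC markers summed to 2828 to 3262 normalized CPM in control and 2306 to 3293 in Trpm7 cKO libraries and overlapped as a sum, although Pax7 rose (log2 fold change 1.19, adjusted p = 2.4e-05) and Myod1 fell by 2.01 on the log2 scale (adjusted p = 1.84e-08). Replicates 4 and 5 of the Trpm7 cKO group carry the same number in their labels, with different suffixes. The labels do not say whether these libraries come from separate mice. If they do not, the p-values below rest on fewer independent samples than 5. Levels are given as normalized CPM, the counts of a gene relative to the library total after scaling by TMM factors. Each molecule is counted once at its 3′ end, so levels of different genes are compared without a correction for length. In such a bulk measurement, fewer cells of a type and less RNA per cell cannot be told apart.

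Every one of the 42 collagen genes had at least 1 count, but only 17 had enough counts to be tested (7 fibrillar, 4 of the basement membrane and 6 other). Among these 17, 8 rose in Trpm7 cKO libraries past a log2 fold change of 1.5 with an adjusted p below 0.05, and none fell past both thresholds. Over all 7753 genes tested, 8.49% rose and 3.53% fell past both. By the adjusted p alone, 11 of the 17 were higher and 1, Col1a2, was lower, against 24.6% and 24.1% of all genes. Normalized counts of the groups did not overlap for 10 of the 17, each time with every Trpm7 cKO library higher. Among all genes tested, 34.5% did not overlap in either direction. The median log2 fold change was 1.41 over the 17 collagen genes and -0.006 over all genes tested. These counts are relative to the library total. Scaled instead per 3000 sorted cells, which compares raw counts, the median over all tested genes stood at -1.15 in log2 fold change. Only Col16a1 then rose past both thresholds and Col1a2 fell past both, against 203 genes higher and 2461 lower of all 7753. Raw counts also depend on the depth of each library, so this scaling is not a measure of RNA per cell. Without Trpm7 cKO libraries 4 and 5, 8 collagen genes again rose past both thresholds and 0 fell, with Col5a1 past them and Col6a3 not. Adjusted p-values here and below are those of the quasi-likelihood test of edgeR, with Benjamini-Hochberg adjustment over all genes tested, and errors of fold changes are standard errors (n = 5 libraries per group).

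**Figure D1:**
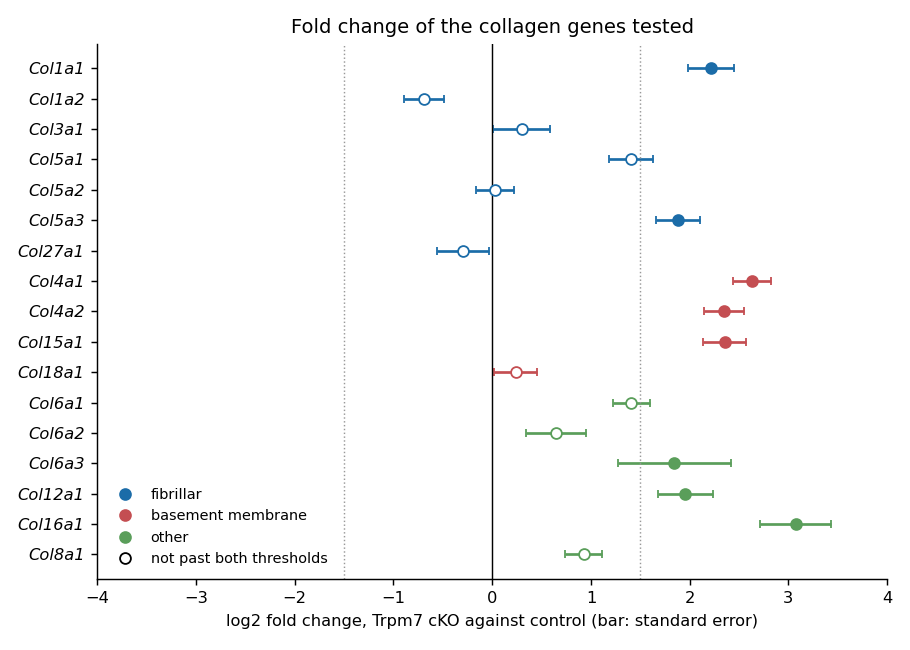
Log2 fold change of the 17 collagen genes tested, Trpm7 cKO against control, with its standard error. Colours mark the class, filled points passed both thresholds and dotted lines stand at the fold threshold of 1.5 on both sides. Of the basement membrane genes, 3 of 4 are filled, whereas the fibrillar genes spread from Col1a2 at -0.69 to Col1a1 at 2.22.

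The classes differed in how much of the collagen RNA they supplied. Fibrillar collagens summed to 3506 ± 785 CPM in control libraries (SD, n = 5) and to 3899 ± 1015 CPM in Trpm7 cKO libraries (SD, n = 5), a fold of 1.11 with overlapping groups. The basement membrane collagens went from a sum of 203 ± 43.5 CPM (SD, n = 5) to 948 ± 140 CPM (SD, n = 5), a fold of 4.68 with no overlap. Other collagens stood between, at 247 ± 31.6 CPM (SD, n = 5) against 584 ± 135 CPM (SD, n = 5), a fold of 2.36 without overlap. As a share of all collagen counts, fibrillar genes took 86.1% to 90.2% in control but 66.5% to 77.7% in Trpm7 cKO libraries, and basement membrane genes took 3.91% to 7.93% against 13.2% to 22.8%. Collagen genes together held 0.312% to 0.457% of the counts of a control library and 0.362% to 0.722% of those of a Trpm7 cKO library, so that this total overlapped.

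**Figure D2:**
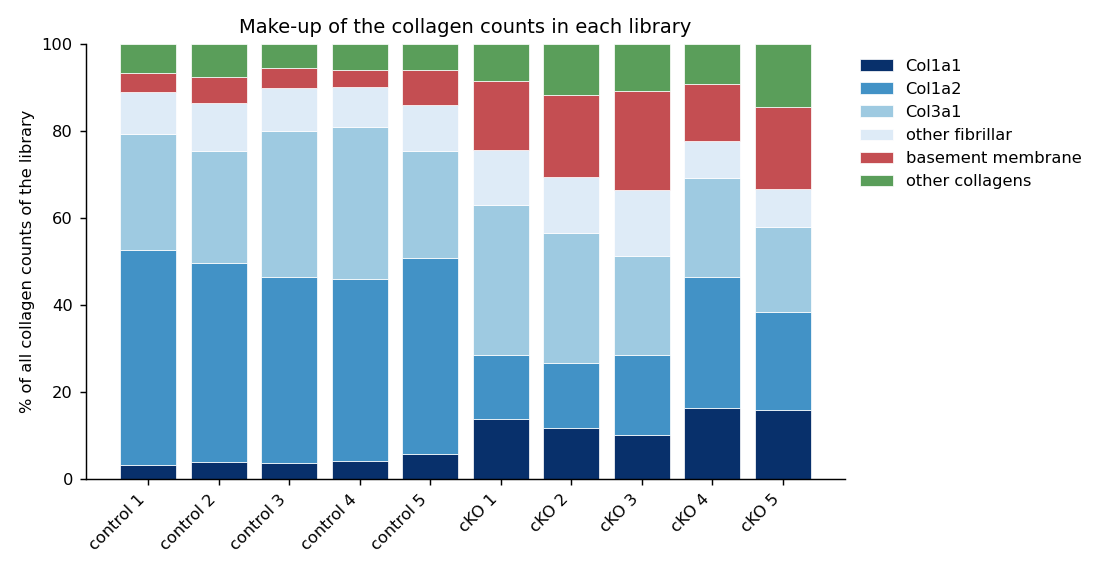
Make-up of the collagen counts in each of the 10 libraries, as percent of the counts over the 42 collagen genes. Col1a2 is the largest single part in every control library (41.8% to 49.5%) and takes 14.7% to 30.3% in Trpm7 cKO libraries, where Col1a1 and the basement membrane collagens take larger parts than in any control library.

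Type I collagen, the main fibrillar collagen of tendon, bone and skin, is built of α1 and α2 chains encoded by Col1a1 (chr11:94936224-94953042, GRCm38, plus strand) and Col1a2 (chr6:4504814-4541544, GRCm38, plus strand). Col1a1 measured 113, 121, 171, 204 and 198 CPM in control libraries 1 to 5 and 968, 615, 387, 916 and 850 CPM in Trpm7 cKO libraries 1 to 5. Col1a2 measured 1806, 1406, 1994, 2072 and 1555 CPM in the same control libraries and 1031, 789, 716, 1710 and 1214 CPM in the Trpm7 cKO libraries. The genes for the partner chains therefore moved in opposite directions. Every Trpm7 cKO library exceeded every control library for Col1a1 (log2 fold change 2.22 ± 0.24, adjusted p = 1.2e-06), whereas Col1a2 was lower (-0.69 ± 0.20, adjusted p = 0.00771) with overlap, Trpm7 cKO library 4 standing within the control range and the other 4 below it. In the 22 alternative settings in which Col1a2 was tested, it stayed lower in all 22 and passed the adjusted p in 21, the exception being the scaling on MuSC markers (adjusted p = 0.063). Without Trpm7 cKO libraries 4 and 5, its log2 fold change was -1.08 (adjusted p = 9.61e-06).

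A ratio of counts within a library does not depend on the scaling between libraries, and was computed for 5 pairs of partner chains chosen after their values were seen. Col1a1 had 0.0628, 0.0859, 0.0855, 0.0984 and 0.127 counts for each count of Col1a2 in control libraries 1 to 5. In Trpm7 cKO libraries 1 to 5 the ratio was 0.939, 0.779, 0.541, 0.536 and 0.7, that is 7.6-fold higher on average of the logarithms, with no overlap. A two-sided exact permutation test over libraries gave p = 0.00794, the smallest it can give with 5 libraries against 5, and an adjusted p of 0.0198 over the 5 pairs. As the pairs were picked with their values known, p-values of chain ratios here and below only describe the separation. The adjustment over 5 pairs does not cover that choice. Of the last 500 bases of the Col1a1 transcripts, 6.6% are shared with other genes in stretches of 31 bases (Hoxb1 and Larp4), and of those of Col1a2 0%.

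Col3a1, which encodes the type III collagen of distensible tissues and early scars, stood second to Col1a2 in control libraries (mean 1179 CPM, range 789 to 1730 CPM) and had the highest mean of any collagen in Trpm7 cKO libraries (1441 CPM, range 877 to 2409 CPM). Its groups overlapped and its log2 fold change of 0.30 ± 0.29 did not pass the test (adjusted p = 0.426). Col3a1 and Col5a2 lie 24614 bases apart on chromosome 1, and Col5a2 did not pass the test either (175 to 299 CPM in control, 149 to 373 CPM in Trpm7 cKO libraries; 0.03 ± 0.20, adjusted p = 0.922). The sign of Col5a2 turned under several alternatives given in the closing section.

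Type V collagen is a minor fibrillar collagen that sets the diameter of type I fibrils, with α1, α2 and α3 chains. Col5a3, the α3 chain, measured 37.8, 54.7, 52.6, 45.2 and 50.9 CPM in control libraries 1 to 5 and 231, 230, 179, 87.8 and 155 CPM in Trpm7 cKO libraries 1 to 5. It rose with no overlap, Trpm7 cKO library 4 being the lowest of its group (log2 fold change 1.88 ± 0.22, adjusted p = 1.59e-06). Col5a1, the α1 chain, ran from 36.8 to 80.3 CPM in control and from 119 to 244 CPM in Trpm7 cKO libraries, again without overlap. Its log2 fold change of 1.41 ± 0.22 (adjusted p = 3.86e-05) lay just under the fold threshold, and 11% of its last 500 transcript bases match other genes (138 of them), as repeats do. Col5a1 had 0.152 to 0.308 counts for each count of Col5a2 in control and 0.511 to 1.07 in Trpm7 cKO libraries, a 2.72-fold difference without overlap. The two-sided exact permutation test gave p = 0.00794 (adjusted p = 0.0198), for a pair picked with its values known. Col27a1, a fibrillar collagen of cartilage, did not pass the test (35.9 to 58.9 CPM in control, 5.52 to 54.8 CPM in Trpm7 cKO libraries; -0.30 ± 0.27, adjusted p = 0.383). The other 4 fibrillar genes, Col2a1, Col11a1, Col11a2 and Col24a1, which belong to cartilage and bone, had at most 4 counts each over the 10 libraries.

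**Figure D3:**
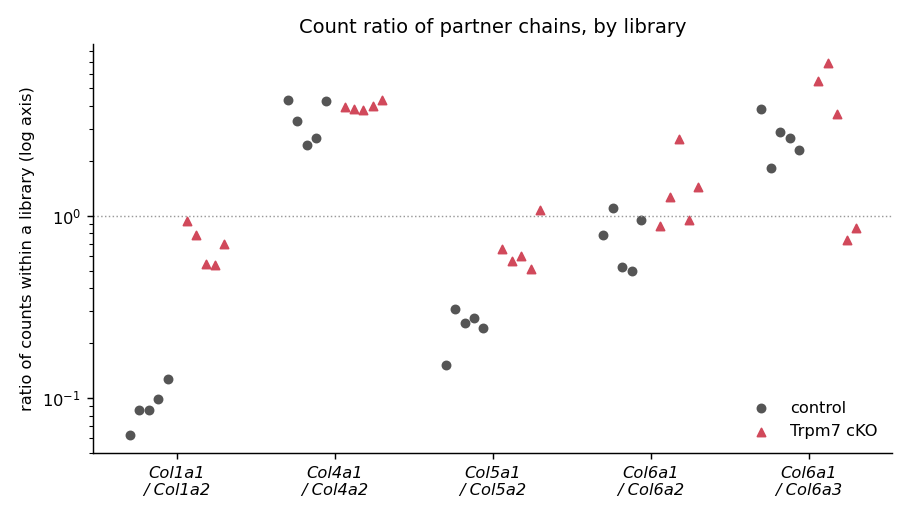
Ratio of counts of partner collagen chains within each library (log axis), for 5 control (circles) and 5 Trpm7 cKO libraries (triangles). The groups separate for Col1a1 over Col1a2 and for Col5a1 over Col5a2, overlap for the type IV pair and both type VI pairs, and split within the Trpm7 cKO group for Col6a1 over Col6a3.

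Type IV collagen, the network-forming collagen of every basement membrane, has its common form built of α1 and α2 chains. Their genes lie head to head on chromosome 8, Col4a1 on the minus strand (chr8:11198423-11312826, GRCm38) and Col4a2 on the plus strand (chr8:11312805-11449287, GRCm38), and share 22 bases at their starts. This stretch is shown because both genes begin in it and rose together. The sequence comes from the RefSeq promoter table (GRCm38.p6, plus strand, chr8:11312805-11312826), and capitals mark GGGCGG, the core of a GC box.
Col4a1/Col4a2 shared start: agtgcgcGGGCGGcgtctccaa
Read on both strands (GGGCGG or CCGCCC), this motif was found in 10 of the 14 tested collagen genes with a RefSeq window of 300 bases around their start, and in 35.7% of all windows. CCAAT (or ATTGG), the other motif searched, was found in 6 of the 14 and in 37.4% of all windows. These shares differ in unit. A gene counted if any of its windows held the motif, whereas the background counts single windows, also of genes not tested here. Whether either motif is more common among collagen genes was not tested. Both motifs lie in the window of Col1a2, which was lower, in that of Col18a1, which did not pass the test, and in those of Col4a1, Col4a2, Col5a3 and Col16a1, which rose.

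Col4a1 measured 68.6, 88.8, 83.7, 85.3 and 148 CPM in control libraries 1 to 5 and 686, 591, 541, 436 and 695 CPM in Trpm7 cKO libraries 1 to 5. Col4a2 measured 15.9, 26.8, 34.3, 32.1 and 34.7 CPM in control and 174, 153, 142, 109 and 160 CPM in Trpm7 cKO libraries. Neither gene overlapped between groups, and both rose (log2 fold change 2.63 ± 0.19, adjusted p = 6.54e-09, and 2.35 ± 0.20, adjusted p = 3.47e-08). The control library with the most Col4a1, replicate 5, also had the highest sum of endothelial markers among controls (78.7 CPM against 6.43 to 32.1 CPM), whose part in its level was not tested. Col4a1 had 2.44 to 4.31 counts for each count of Col4a2 in control and 3.79 to 4.34 in Trpm7 cKO libraries, so that this ratio, unlike that of type I collagen, overlapped (two-sided exact permutation test, p = 0.167, adjusted p = 0.209). The antisense gene Gm15418, which overlaps the 3′ end of Col4a1, had 0 counts in every library.

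The remaining type IV chains, which form networks of specialised basement membranes such as those of the kidney, were sparse. Col4a5 had 15, 3, 12, 10 and 7 counts in control and 2, 2, 0, 2 and 1 counts in the shallower Trpm7 cKO libraries. Col4a4 had 1 to 4 counts in control and 0 to 3 in Trpm7 cKO libraries, while Col4a3 and Col4a6 stayed under 10 counts over all libraries. None of these 4 was tested at this depth.

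Types XV and XVIII are basement membrane proteoglycans with a collagen core, from whose ends the fragments restin and endostatin are cut. Col15a1 measured 21.9, 25.8, 39.7, 33.1 and 47.5 CPM in control libraries 1 to 5 and 212, 199, 175, 147 and 99.3 CPM in Trpm7 cKO libraries 1 to 5. It rose with no overlap (log2 fold change 2.35 ± 0.22, adjusted p = 7.02e-08). Col18a1 stayed between 28.9 and 32.8 CPM in control and ran from 21.9 to 44.2 CPM in Trpm7 cKO libraries (0.24 ± 0.22, adjusted p = 0.393). Its 3′ end overlaps Slc19a1 on the opposite strand, and the strand setting of the counting is not given in the sources used here.

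**Figure D4:**
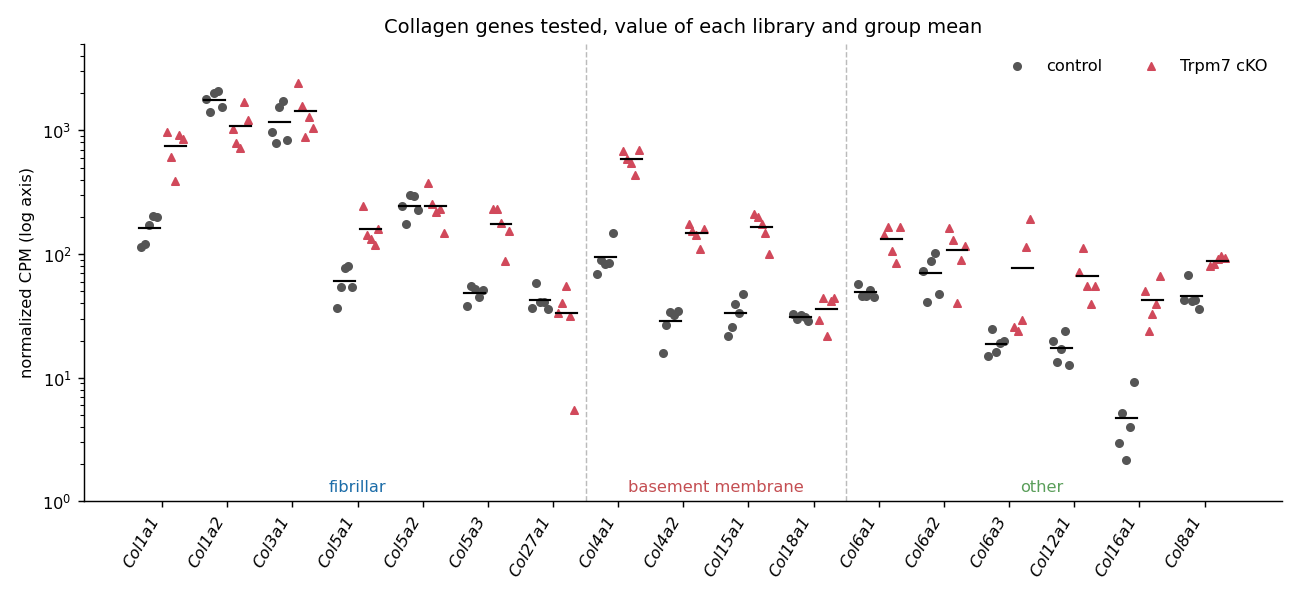
Normalized CPM (log axis) of the 17 collagen genes tested in each of 5 control (circles) and 5 Trpm7 cKO libraries (triangles), with the group mean as a bar. Groups do not overlap for 10 genes, among them Col1a1, Col4a1 and Col16a1, and Col6a3 is at 114 and 193 CPM in Trpm7 cKO libraries 4 and 5 but at 23.9 to 29.2 CPM in the other 3, near the highest control at 24.8 CPM.

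Type VI collagen, whose loss causes muscular dystrophies and which belongs to the satellite cell niche, is built of α1, α2 and α3 chains. Col6a1 ran from 45.1 to 57.7 CPM in control and from 84.5 to 166 CPM in Trpm7 cKO libraries without overlap (log2 fold change 1.41 ± 0.19, adjusted p = 5.7e-06), just under the fold threshold. Col6a2, its neighbour 85161 bases away on chromosome 10, overlapped between groups (41.3 to 102 CPM in control, 40.2 to 163 CPM in Trpm7 cKO libraries; 0.65 ± 0.30, adjusted p = 0.0938). Their count ratio was 0.5 to 1.1 in control and 0.875 to 2.64 in Trpm7 cKO libraries (two-sided exact permutation test, p = 0.0556, adjusted p = 0.0927).

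Col6a3 behaved otherwise within the group. It measured 14.9, 24.8, 16.1, 19.1 and 19.7 CPM in control libraries 1 to 5 and 25.9, 23.9, 29.2, 114 and 193 CPM in Trpm7 cKO libraries 1 to 5. Trpm7 cKO libraries 4 and 5, those whose labels share a number, stood far above the controls, libraries 1 and 3 just above the highest control, and library 2 within the control range. The log2 fold change over all libraries was 1.84 ± 0.57 (adjusted p = 0.0201), and without these 2 libraries it was 0.42 (adjusted p = 0.254). Without library 4 alone the log2 fold change was 1.41 (adjusted p = 0.0951), and without library 5 alone it was 1.43 (adjusted p = 0.0195), under the fold threshold. In the same 2 libraries endothelial markers summed to 403 and 756 CPM, against 134 to 248 CPM in the other Trpm7 cKO libraries, and leukocyte markers to 4404 and 4244 CPM, against 1032 to 2554 CPM. Some fibroblast, matrix and mural genes were also highest there. Dcn was at 169 and 210 CPM against 44.2 to 115 CPM, and Ly6a at 176 and 353 CPM against 42.3 to 99.8 CPM. Fn1 was at 194 and 193 CPM against 35 to 126 CPM, and Rgs5 at 220 and 348 CPM against 66.5 to 131 CPM. Others were not, as library 4 had the lowest Trpm7 cKO level of Dpt (79.5 CPM), Gsn (714 CPM), Bgn (176 CPM) and Notch3 (205 CPM). Library 5 had the lowest of Acta2 (497 CPM). Fibroblast markers summed to 1234 and 1992 CPM in libraries 4 and 5, against 1381 to 1855 CPM in the other Trpm7 cKO libraries. Mural markers summed to 1465 and 1346 CPM there, against 1224 to 1769 CPM. The part of these cell types in the Col6a3 level was not tested. Col6a1 had 3.62 to 6.92 counts for each count of Col6a3 in Trpm7 cKO libraries 1 to 3 and 0.739 and 0.857 in libraries 4 and 5, against 1.83 to 3.87 in control (two-sided exact permutation test over all libraries, p = 0.865).

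Among the collagens that sit on fibrils or link them to other matrix, Col16a1 had the largest log2 fold change of the 17 tested, 3.07 ± 0.36 (adjusted p = 1.15e-06). It measured 2.98, 5.16, 2.14, 4.02 and 9.26 CPM in control libraries 1 to 5 and 49.9, 23.9, 32.9, 39.8 and 66.2 CPM in Trpm7 cKO libraries 1 to 5. Col12a1, a fibril-associated collagen of tendon and of muscle connective tissue, measured 19.9, 13.4, 17.2, 24.1 and 12.7 CPM in control and 72.1, 112, 54.8, 39.8 and 55.2 CPM in Trpm7 cKO libraries (1.96 ± 0.28, adjusted p = 9.54e-06). Neither gene overlapped between groups. Col8a1, a short-chain network collagen of vessel walls and the cornea, was higher without overlap but under the fold threshold (35.9 to 68.2 CPM in control, 79.5 to 96.1 CPM in Trpm7 cKO libraries; 0.93 ± 0.19, adjusted p = 4.26e-04).

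Further collagens had at least 10 counts in all but too few to be tested, none with more than 20 in a library, and their counts are given unscaled. Col22a1, a collagen of the myotendinous junction, had 0 counts in all 5 control libraries, which allows up to 3 counts each, and 8, 9, 3, 0 and 0 counts in Trpm7 cKO libraries 1 to 5. Col13a1, a transmembrane collagen of the neuromuscular junction, went the other way, with 11, 8, 14, 20 and 4 counts in control and 1, 1, 0, 2 and 0 counts in Trpm7 cKO libraries. The 2 genes thus had their counts on opposite sides, and Col22a1 only in Trpm7 cKO libraries other than 4 and 5. Col14a1, a fibril-associated collagen, had 1 to 6 counts in control and 2 to 12 in Trpm7 cKO libraries, the 12 in library 4. Col19a1 had 7 to 12 counts in control and 1 to 13 in Trpm7 cKO libraries, Col17a1, the transmembrane collagen of hemidesmosomes, 4 to 10 and 0 to 5, and Col26a1 2 to 7 and 2 to 6. Col6a6, another type VI chain, had no counts in control and 0, 1, 2, 1 and 6 in Trpm7 cKO libraries. With Col4a4 and Col4a5 these are 9 genes, and the last 16 of the 42 had under 10 counts over all libraries and at most 3 in any one. When low-count genes were kept in the fit, 21914 genes were tested, of which 1813 were called higher and 623 lower. Col22a1 and Col6a6 were then called higher (adjusted p = 3.54e-07 and 0.000247), as was Col14a1 (adjusted p = 0.0118). So were Col25a1 and Col11a2, on 4 counts each. Col13a1 and Col4a5 were called lower (adjusted p = 9.63e-05 and 0.0138).

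The genes that modify, process, bind and degrade collagen were followed as a list of 73, of which 41 were tested. Of these, 13 rose and 1 fell past both thresholds, 22 were higher and 4 lower by the adjusted p alone, and 15 did not pass it. Over all genes tested the shares were 8.49% and 3.53% past both thresholds and 24.6% and 24.1% by the adjusted p alone. With counts thinned to the smallest library 4 pathway genes rose past both thresholds, against 274 of all 3733 genes tested there. Per 3000 sorted cells 6 rose and 4 fell, against 203 and 2461 of all 7753 genes. The median log2 fold change of the 41 was 0.872. The parts of the list are described in turn, and differences between them were not tested.

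Of 9 hydroxylation genes tested, 0 passed both thresholds, a count that the shares of 8.49% higher and 3.53% lower over all genes do not set apart. P4hb, the shared subunit of the prolyl hydroxylase, ran from 222 to 258 CPM in control and from 237 to 325 CPM in Trpm7 cKO libraries (adjusted p = 0.163), and only P3h4 and Plod1, a lysyl hydroxylase, passed the adjusted p (log2 fold changes 0.77 and 1.31). Of 10 folding and export genes, Fkbp7, a prolyl isomerase of the endoplasmic reticulum, rose past both thresholds (1.88 ± 0.31, adjusted p = 5.25e-05). By the adjusted p alone, 5 of the 10 were higher, Fkbp7 included, and 1 was lower, against 24.6% higher and 24.1% lower over all genes tested. Those higher included Creb3l1 and Creb3l2, transcription factors of secretory pathway genes (0.98 ± 0.28, adjusted p = 0.00649, and 1.35 ± 0.25, adjusted p = 0.000189), and Fkbp10, a further prolyl isomerase (1.36 ± 0.32, adjusted p = 0.00149). Serpinh1, the chaperone Hsp47 that binds the collagen triple helix, did not pass the test (-0.08 ± 0.13, adjusted p = 0.631), with 685 to 913 CPM in control and 641 to 810 CPM in Trpm7 cKO libraries. Sparc, a secreted collagen-binding protein, was also higher, without overlap (0.92 ± 0.15, adjusted p = 3.63e-05), and Mia3, needed to export large procollagens, was lower (-0.37 ± 0.15, adjusted p = 0.0492).

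All 3 of the cross-linking enzymes tested, of 5 listed, rose past both thresholds, against 8.49% of all genes tested. They are lysyl oxidases, which oxidise lysines of collagen and elastin. Loxl2 measured 3.98, 4.13, 2.14, 4.02 and 6.95 CPM in control and 35.1, 62.6, 43.8, 33.1 and 88.3 CPM in Trpm7 cKO libraries (log2 fold change 3.48 ± 0.35, adjusted p = 2.01e-07). Lox and Loxl1 rose by 2.41 ± 0.28 (adjusted p = 1.04e-06) and 2.25 ± 0.21 (adjusted p = 7.02e-08), each without overlap. Of 4 genes of propeptide removal, Bmp1, the C-proteinase of fibrillar procollagens, and its enhancer Pcolce rose (1.55 ± 0.36, adjusted p = 0.00161, and 1.60 ± 0.32, adjusted p = 0.00032), and Adamts2, the N-proteinase, was higher just under the fold threshold (1.48 ± 0.30, adjusted p = 0.000355). Adamts14 did not pass the test (0.55 ± 0.28, adjusted p = 0.107).

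Of the 5 fibril-binding genes tested, 4 rose past both thresholds, whereas over all genes tested 8.49% rose and 3.53% fell past both. Dpt (dermatopontin) went from 7.96 to 12.7 CPM in control to 79.5 to 248 CPM in Trpm7 cKO libraries (4.01 ± 0.28, adjusted p = 5.12e-09), and Bgn (biglycan) from 20.9 to 42.8 CPM to 176 to 530 CPM (3.39 ± 0.26, adjusted p = 2.13e-08). Fn1 (fibronectin) and Dcn (decorin) rose with overlapping groups (2.42 ± 0.44, adjusted p = 0.000715, and 1.61 ± 0.35, adjusted p = 0.0018). Ogn was higher under the fold threshold (0.87 ± 0.29, adjusted p = 0.019). Of 6 degradation genes, Mmp14, a membrane-bound collagenase, and Mrc2, an endocytic receptor for collagen, rose (3.37 ± 0.58, adjusted p = 0.00054, and 3.01 ± 0.31, adjusted p = 2.48e-07), with Mmp14 highest in Trpm7 cKO library 5 at 298 CPM against 44.3 to 79.5 CPM in the other 4. Pepd, the dipeptidase that frees proline from collagen fragments, fell by 1.87 on the log2 scale (adjusted p = 9.85e-07), from 133 to 233 CPM in control to 35 to 64.7 CPM in Trpm7 cKO libraries. Timp2, with the highest mean level of these 6, and Timp1 did not pass the test (0.25 ± 0.13, adjusted p = 0.124, and 0.12 ± 0.16, adjusted p = 0.548). Mmp2 was higher by the adjusted p alone (0.96 ± 0.35, adjusted p = 0.0331). Among 4 receptors tested, Itga1, the collagen-binding integrin α1, rose (3.77 ± 0.38, adjusted p = 2.24e-07), while its partner Itgb1 and the collagen-binding kinase Ddr2 were lower by the adjusted p alone (-0.54 ± 0.16, adjusted p = 0.00971, and -0.72 ± 0.16, adjusted p = 0.00119). Ddr1 did not pass the test (-0.24 ± 0.16, adjusted p = 0.217).

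Markers of other cell types moved with genotype too, and their part in the collagen results was not tested. Fibroblast markers summed to 489 to 716 CPM in control and 1234 to 1992 CPM in Trpm7 cKO libraries, and all 4 of the 11 measured that could be tested were higher (Gsn, Dcn, Dpt and Ly6a, of which Gsn supplied most of the sum). The defining fibroblast marker Pdgfra had 0, 1, 2, 0 and 2 counts in control and 4, 2, 1, 17 and 1 in Trpm7 cKO libraries, which are 0 to 2.32 CPM and 3.65 to 28.2 CPM without overlap. Smoc2 did not overlap either (0 to 1.16 CPM and 3.65 to 8.28 CPM). Mfap5 had 1, 2, 1, 2 and 0 counts against 15, 0, 3, 21 and 5, and Lum 4, 0, 1, 3 and 2 against 6, 0, 3, 12 and 6. Pi16 was at 0 in control, and Dpp4, Clec3b and Pi16 had at most 2 counts in any library. Endothelial markers summed to 6.43 to 78.7 CPM and 134 to 756 CPM, with all 3 of 10 that were tested higher. Mural markers summed to 604 to 953 CPM and 1224 to 1769 CPM, with all 3 of 8 that were tested higher, among them Rgs5 (3.49 ± 0.48, adjusted p = 0.000101). Acta2 and Notch3 supplied most of the mural sum and were higher under the fold threshold (0.80 and 0.80). Leukocyte markers summed to 235 to 406 CPM and 1032 to 4404 CPM, with all 12 of 15 that were tested past both thresholds. Over all genes tested, 24.6% were higher by the adjusted p alone and 8.49% rose past both thresholds. Glial markers overlapped as a sum (30.1 to 62.6 CPM and 36.8 to 193 CPM), most of which was Ngfr in control libraries. Mbp, with at most 17 counts in a library, did not overlap (1.07 to 5.02 CPM and 12.9 to 31.4 CPM). Tendon markers were lower as a sum (96 to 135 CPM and 21.9 to 44.1 CPM) through Scx alone, a transcription factor of tendon, which fell by 2.67 on the log2 scale (adjusted p = 3.68e-08). Fmod, Kera, Mkx, Thbs4 and Tnmd had higher means in Trpm7 cKO libraries, on at most 13 counts in a library. Tnmd was at 0 in control and had at most 3 counts in a Trpm7 cKO library. The fibroblast, endothelial, mural and leukocyte sums did not overlap between the groups, nor did those of basement membrane and other collagens. Fibrillar collagen sums overlapped.

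**Figure D5:**
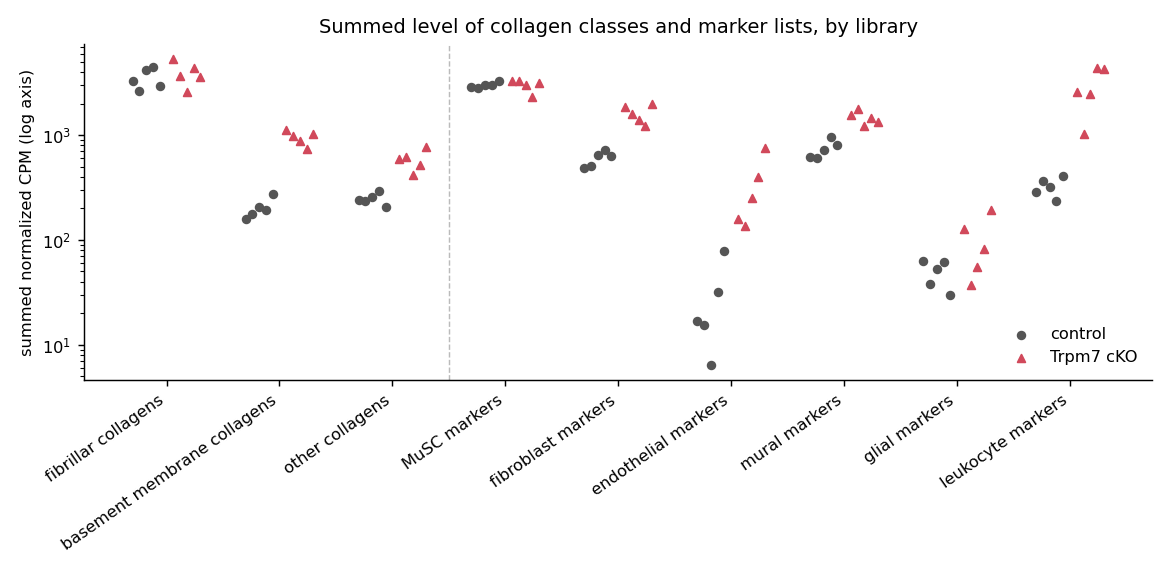
Summed normalized CPM (log axis) of the 3 collagen classes and of 6 cell type marker lists in each control (circles) and Trpm7 cKO library (triangles). Basement membrane and other collagens and the fibroblast, endothelial, mural and leukocyte lists separate by group, whereas fibrillar collagens, MuSC and glial markers overlap.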

How the data were processed

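RNA-seq libraries (CEL-Seq2, unique molecular identifiers, 3′ end) of 5 control and 5 Trpm7 cKO samples were analysed. Per the submitters' processing notes and the methods, the authors extracted UMIs with UMI-tools 1.1.4, trimmed with Trim Galore 0.6.10, aligned to GRCm38 with HISAT2 2.2.1, counted with featureCounts 2.0.6, removed UMI duplicates and tested with DESeq2 1.30.1. The deposited values are whole-number counts without normalization. Annotation release and strand setting are not given in the sources used here. Groups came from the labels.

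The table held 24620 entries under 24608 symbols; for 12 repeated symbols the entry with the larger total was kept. Counts were tested with edgeR 4.0.16 (R 4.3.3): filterByExpr (minimum count 10, minimum total 15), TMM factors, robust quasi-likelihood fit on genotype, Benjamini-Hochberg adjustment over 7753 genes, thresholds of 1.5 in log2 fold change and 0.05 in adjusted p, as in the study's methods. Totals ran from 205986 to 1097709 counts; limits of 3 counts for a count of 0 cover counting error only. Ratios of chains used a pseudocount of 0.5 in the logarithm and exact permutation tests. The script was tested on simulated data with known fold changes. Every pair of libraries of a group differed by more than sampling noise (chi-square per degree of freedom at least 1.47). Nothing says that libraries come from separate mice, so p-values measure the spread between libraries, which may be technical.

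The collagen genes, classes, pathway and marker lists were chosen with earlier results of these data known. Every tested collagen was named, as were untested ones with at least 10 counts. Of the pathway list, genes past both thresholds were named, with further tested members of each part. Tested genes of hydroxylation and of folding and export left unnamed did not pass the adjusted p. The 5 chain pairs, the fit without Trpm7 cKO libraries 4 and 5 and the counts per 3000 sorted cells were chosen after the data were seen. Gene positions and shared 3′ sequence came from GENCODE M21 (GRCm38), and promoter windows (250 bases before to 50 after the start) from RefSeq. Alternatives were DESeq2 1.42.0, limma-voom (limma 3.58.1), other scalings, filters and thresholds, thinning to the smallest library, the replicate number as a block, and each library left out.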

Additional observations from a re-analysis of the deposited data

Results flagged for a closer look

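In 3 of the 40 groups of 5 libraries checked, 1 library stood far from the other 4, and chance alone gives about 1 in 20. Control replicate 5 had 148 CPM of Col4a1 against 68.6 to 88.8 CPM in the other control libraries. Control replicate 2 had 58.9 CPM of Col27a1 against 35.9 to 41.2 CPM and 68.2 CPM of Col8a1 against 35.9 to 42.8 CPM. All 3 values lay in control libraries, and those of Col4a1 and Col8a1 remained below every Trpm7 cKO library.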

How the results depend on the processing

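Scaling to the 3000 sorted cells instead of to the library compares raw counts, which also carry library depth, and moved the median of all genes to -1.15. There 1 collagen gene was called higher (Col16a1, log2 fold change 1.92) and 1 lower (Col1a2, -1.79), with 6 pathway genes higher and 4 lower. Over all 7753 genes, 203 were called higher and 2461 lower. Signs there turned for Col3a1 (-0.74), Col5a2 (-1.05), Col18a1 (-0.90), Col6a2 (-0.47) and Col8a1 (-0.23), while Col1a1 (1.13, adjusted p = 0.00556), Col4a1 (1.46), Col4a2 (1.19), Col15a1 (1.25) and Col12a1 (0.82, adjusted p = 0.0488) stayed higher under the fold threshold. Col5a3 (0.73, adjusted p = 0.0725), Col6a3 (0.62, 0.135), Col5a1 (0.27, 0.516) and Col6a1 (0.24, 0.57) missed the adjusted p there. The sign of Col5a2 also turned without a filter (-0.17), with the replicate block (-0.0045), without control replicate 2 (-0.07) and without Trpm7 cKO replicate 1 (-0.19), the range over libraries left out being -0.19 to 0.14. Without a filter, 2 collagen genes were called lower and 21 pathway genes higher, since more genes were tested. Of all 21914 genes in that fit, 623 were called lower and 1813 higher. Thinned to the smallest library, 4 pathway genes were called higher, with fewer genes tested (274 of all 3733 called higher). By the adjusted p alone, 1 collagen gene and 4 pathway genes were lower and 22 pathway genes higher, against 24.1% lower and 24.6% higher over all genes tested. Leaving out each library in turn gave 7 to 9 collagen genes higher and 0 to 0 lower, and 13 to 18 pathway genes higher and 1 to 1 lower. The replicate block called 8 collagen genes higher, 0 lower, and 13 and 1 pathway genes. Correlations of same-numbered libraries ran from -0.118 to 0.181, and 1 of 5 correlated best with its own number, so the numbers were not taken as pairs. Col6a3 missed the adjusted p with limma-voom (0.0524) and without a filter (0.0679). Col5a1 and Col6a1 passed the fold threshold in 5 and 3 settings. The causes were not tested. Genes under 10 counts are beyond this depth.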
